A study of Mus musculus with 6 samples.

Results

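Pparg and 9 other transcription factors that set adipocyte identity were followed in inguinal white adipose tissue, the subcutaneous fat depot of the mouse groin. The members are Pparg, Rxra, Nr1h3, Cebpa, Cebpb, Cebpd, Klf15, Ebf1, Zfp423 and Stat5a. They were chosen by gene name, as known factors of the PPARG network, and each name matched 1 gene, which gives 10 of the 54532 genes in the table. All 10 passed the filter on low counts, as did 16623 genes in all. The 3 Cdo1AKO samples came from mice in which Cdo1, the gene of cysteine dioxygenase 1, was deleted in adipose tissue. The 3 control samples came from mice with floxed Cdo1 that the genotype labels call WT. All mice ate a high-fat diet for 15 weeks from the age of 8 weeks. The sources used here give neither the Cre line and the floxed exons nor the sex or the animals behind each sample. A p-value therefore reflects the spread among these 6 samples, and that spread may be technical. The question is how the levels of these factors in fat differ where Cdo1 was deleted.

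PPARG is a nuclear receptor and the central factor of fat cell differentiation. It binds DNA as a pair with a retinoid X receptor such as RXRA, and works together with CEBPA on many adipocyte genes. CEBPB and CEBPD are induced early in differentiation and raise Pparg and Cebpa, which then maintain each other. KLF15, EBF1, STAT5A and ZFP423 also promote Pparg expression or commitment to the fat cell lineage, and NR1H3, the liver X receptor alpha, is an oxysterol receptor that also pairs with RXRs.

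The upstream sequences of 4 factors are shown because the results turn on these genes: Pparg itself, Cebpa, and Klf15 and Ebf1, the 2 with the largest fold changes. They are the 250 bases before a transcription start, 5′ to 3′ on the gene's strand, from RefSeq (GRCm38.p6). The table held 9 of the 10 members, with 16 starts. Capitals mark matches, on either strand, to any of 9 motifs: TTGCNNAA (C/EBP), AGGTCA (the core of nuclear receptor sites), AGGTCA repeated after 1 base (which contains it), TCCC followed after 2 bases by GGGA (EBF), TTCNNNGAA (STAT5), GGGCGG (GC box), CACGTG (E-box), CCAAT and TATAAA.

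Pparg, chr6:115421816-115422065, plus strand, an intron of the gene before its most downstream start: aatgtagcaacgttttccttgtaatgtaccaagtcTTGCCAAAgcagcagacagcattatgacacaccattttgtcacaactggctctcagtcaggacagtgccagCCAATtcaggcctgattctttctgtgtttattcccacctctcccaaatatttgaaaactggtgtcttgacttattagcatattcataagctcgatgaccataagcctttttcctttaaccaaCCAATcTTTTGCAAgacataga
Cebpa, chr7:35119043-35119292, plus strand, just before the gene: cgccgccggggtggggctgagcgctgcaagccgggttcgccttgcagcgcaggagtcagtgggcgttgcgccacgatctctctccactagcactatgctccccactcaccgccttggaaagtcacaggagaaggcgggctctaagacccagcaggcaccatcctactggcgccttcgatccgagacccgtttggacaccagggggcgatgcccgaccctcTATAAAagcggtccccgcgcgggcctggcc
Klf15, chr6:90462326-90462575, plus strand, just before the gene: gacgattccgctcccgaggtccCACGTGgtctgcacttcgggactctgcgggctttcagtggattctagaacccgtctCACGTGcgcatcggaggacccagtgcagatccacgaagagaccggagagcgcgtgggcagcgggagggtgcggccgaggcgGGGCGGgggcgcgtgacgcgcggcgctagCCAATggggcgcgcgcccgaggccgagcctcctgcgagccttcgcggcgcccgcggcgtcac
Ebf1, chr11:44619978-44620227, plus strand, an intron of the gene before its downstream RefSeq start: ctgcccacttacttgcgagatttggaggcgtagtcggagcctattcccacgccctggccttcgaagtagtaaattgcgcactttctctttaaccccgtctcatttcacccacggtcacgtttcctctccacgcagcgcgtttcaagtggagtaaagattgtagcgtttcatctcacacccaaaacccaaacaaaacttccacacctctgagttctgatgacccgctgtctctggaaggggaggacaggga

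The Pparg window held 2 C/EBP matches, beginning 215 and 16 bases before the start, and 2 CCAAT matches. Over all 32851 windows of this length, 9.56% held a C/EBP match and 0.721% held at least 2. The Klf15 window held 2 CACGTG matches, beginning 228 and 172 bases before the start, where 6.02% of all windows held at least 1 and 0.429% at least 2. The Cebpa window held a TATAAA match beginning 30 bases before its start, as 12.4% of windows did somewhere. The Ebf1 window held none of the 9 motifs. None of these 4 windows held AGGTCA, which 14.0% of all windows held, and a repeat of it stood in 0.0335%. The 2 other Pparg windows, not shown, each held AGGTCA, beginning 28 and 9 bases before their starts. A match is only a run of letters and no match says only that these letters are not in this window.

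Libraries held 16275184 to 19205804 counts and differed in lymph node transcripts. Levels are given as CPM, counts relative to the scaled library size. The median level of the 10 lymph node and B cell markers was 66.7, 0.515 and 79.9 CPM in Cdo1AKO 1, 2 and 3, against 0.0614, 126 and 74.0 CPM in control 1, 2 and 3. Cdo1AKO 2 and control 1 thus held almost none of these transcripts, and these libraries also stood apart on the first principal component. Cdo1AKO 1 and 3 were closer to each other than any other pair of a group, with a chi-square per gene of 5.59 against 23.1 to 204 for the others, but differed by more than sampling noise. Cdo1 had 123, 392 and 134 CPM in Cdo1AKO 1, 2 and 3 and 887, 432 and 631 CPM in control 1, 2 and 3. The groups did not overlap, although edgeR gave adjusted p = 0.416. The 11 adipocyte markers were all present, with a summed level of 24388 to 52787 CPM in Cdo1AKO libraries and 40027 to 59250 CPM in control libraries. In bulk tissue, fewer cells of a type and less RNA per cell cannot be told apart.

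Of the 10 factors, 9 averaged less in Cdo1AKO than in control tissue, and Zfp423 averaged more. The median log2 fold change of Cdo1AKO over control was -0.51 over the 10 factors and 0.06 over all 16623 genes tested. A negative fold change was seen for 44% of all genes. No factor passed edgeR's quasi-likelihood test at an adjusted p under 0.05, and no gene in the table did (0%). At an unadjusted p under 0.05 there were 3 factors, Ebf1, Klf15 and Nr1h3, all lower, beside 10.4% of all genes in either direction, 5.71% lower and 4.66% higher. Groups did not overlap for Ebf1 and Cebpa, which lay lower in every Cdo1AKO library, as 9.73% of all genes did, while 8.87% lay higher. DESeq2, run as an alternative, called 1 factor, Ebf1, beside 1.48% of all genes (0.965% lower and 0.513% higher). With a term in edgeR for the presence of lymph node transcripts, 2 factors passed, Klf15 and Ebf1, both lower, beside 4.13% of all genes (1.87% lower and 2.26% higher).

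**Figure D1:**
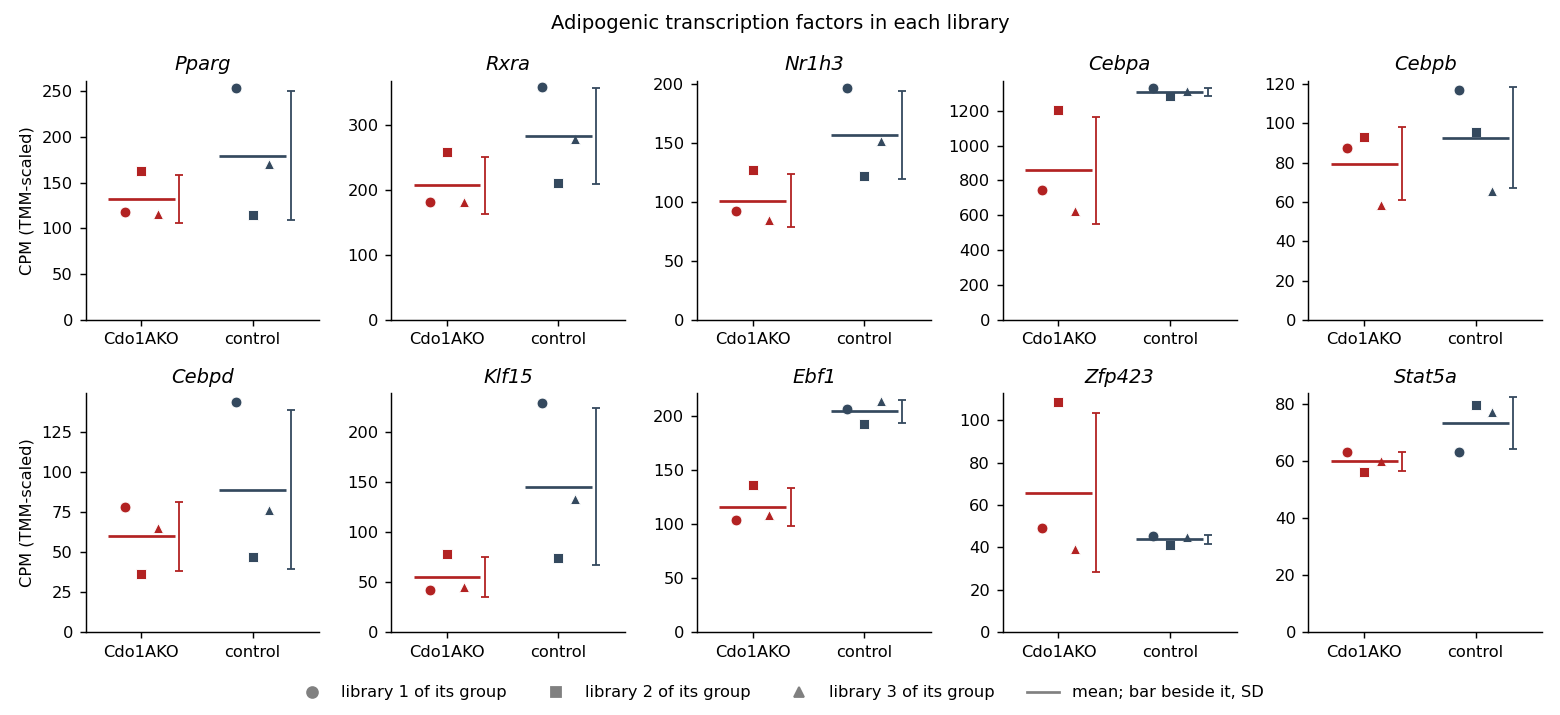
TMM-scaled CPM of the 10 factors in each of the 3 Cdo1AKO and 3 control libraries, with the group mean (line) and SD (bar), on axes that start at 0. Ebf1 and Cebpa are the 2 factors whose groups do not overlap, and control 1 is the highest library for Pparg, Rxra, Nr1h3, Cebpa, Cebpb, Cebpd and Klf15.

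The nuclear receptors come first. Pparg (ENSMUSG00000000440, chromosome 6, 115360951 to 115490399, plus strand) had 118, 163 and 116 CPM in Cdo1AKO 1, 2 and 3, against 254, 114 and 171 CPM in control 1, 2 and 3. The Cdo1AKO values all lay inside the control range. Means were 132 ± 26.5 CPM in Cdo1AKO and 180 ± 70.0 CPM in control tissue (SD, n = 3 each). This gave a log2 fold change of -0.44 ± 0.32 (SE; edgeR adjusted p = 0.669), which was -0.12 without control 1 and -0.69 without control 2. The table counts the gene as a whole, so transcripts from its several starts, among them the adipocyte form that begins at the downstream start shown above, cannot be told apart.

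Rxra (ENSMUSG00000015846, chromosome 2, 27676440 to 27762957, plus strand), the DNA-binding partner of PPARG, had 182, 258 and 181 CPM in Cdo1AKO 1, 2 and 3. In control 1, 2 and 3 it had 358, 210.5 and 279 CPM. Cdo1AKO 2 lay above control 2, so the groups overlapped, with a log2 fold change of -0.45 ± 0.26 (SE; edgeR adjusted p = 0.599). Without control 1 it was -0.25.

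Nr1h3 (ENSMUSG00000002108, chromosome 2, 91184061 to 91202834, minus strand), an oxysterol receptor, had 92.1, 127 and 84.4 CPM in Cdo1AKO 1, 2 and 3, against 197, 122 and 152 CPM in control 1, 2 and 3. The only overlap was Cdo1AKO 2 just above control 2, and the log2 fold change was -0.63 ± 0.24 (SE; edgeR adjusted p = 0.458). Within the 4 libraries that hold lymph node transcripts it was -0.64 ± 0.13, with adjusted p = 0.0229 by edgeR, where 15.3% of all genes passed. Macrophages express Nr1h3 too: the 9 macrophage markers summed to 704 to 749 CPM in Cdo1AKO libraries and 474 to 684 CPM in control libraries. Of these markers 8 had positive fold changes, 4 of them at an unadjusted p under 0.05 by edgeR, beside 4.66% of all genes. The part of macrophages in the Nr1h3 value was not tested.

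Pparg, Rxra and Nr1h3 varied alike from library to library. On log2 CPM centred on each gene's own mean, the root mean square difference over the 6 libraries was 0.11 between Rxra and Nr1h3, 0.11 between Pparg and Rxra, and 0.18 between Pparg and Nr1h3. These were the 3 closest of the 45 pairs among the factors. The ratio of Pparg to Rxra CPM was 0.650, 0.631 and 0.638 in Cdo1AKO 1, 2 and 3 and 0.709, 0.544 and 0.612 in control 1, 2 and 3. The Cdo1AKO ratios lay inside the control range. The closest matches to Pparg among 11196 other protein-coding genes with a mean of at least 5 CPM were Sult1a1 (a sulfotransferase) at 0.077, Rhob (a small GTPase) at 0.080 and Timp3 (an inhibitor of matrix proteases) at 0.083. Next came Aff1 at 0.086 and Fosl2 at 0.087, where the median gene stood at 0.46. Sult1a1 had 158, 248 and 156 CPM in Cdo1AKO 1, 2 and 3 and 370, 174 and 254 CPM in control 1, 2 and 3.

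The 3 C/EBP factors are given in turn, and differences between them were not tested. Cebpa (ENSMUSG00000034957, chromosome 7, 35119293 to 35121928, plus strand) had 743, 1207 and 622 CPM in Cdo1AKO 1, 2 and 3, against 1330, 1283 and 1312 CPM in control 1, 2 and 3. The controls lay close together, at 1308 ± 23.5 CPM, while the Cdo1AKO libraries spread over 858 ± 309 CPM (SD, n = 3 each). Cdo1AKO 2 came close to the controls and the other Cdo1AKO libraries lay far below. Over all 6 libraries the log2 fold change was -0.61 ± 0.30 (SE; edgeR adjusted p = 0.548). It was -0.94 ± 0.12 without Cdo1AKO 2 (adjusted p = 0.0719 by edgeR) and -0.93 ± 0.13 within the 4 libraries with lymph node transcripts (adjusted p = 0.00779 by edgeR). Those 4 are only the closely alike Cdo1AKO 1 and 3 and control 2 and 3, and 15.3% of all genes passed there. The 11 adipocyte markers summed to 24388, 52787 and 26026 CPM in Cdo1AKO 1, 2 and 3, against 59250, 40027 and 46793 CPM in control 1, 2 and 3, so within Cdo1AKO their sum too was highest in library 2. Of the 11, 8 were highest in that library and 3 (Adrb3, Cfd and Acvr1c) were lowest there; their part in the Cebpa value was not tested. The span of an antisense gene overlaps that of Cebpa by 313 bases, and it had at most 157 counts a library. Where their exons meet, which was not tested, their reads cannot be told apart without a stated strand setting.

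Cebpb (ENSMUSG00000056501, chromosome 2, 167688915 to 167690418, plus strand) had 87.3, 93.0 and 58.3 CPM in Cdo1AKO 1, 2 and 3. In control 1, 2 and 3 it had 117, 95.4 and 65.6 CPM. The groups overlapped over most of their range, with a log2 fold change of -0.22 ± 0.28 (SE; edgeR adjusted p = 0.800). Of its 1504 bases, 908 lie within the span of Tmem189 on the opposite strand, which had 884 to 1087 counts a library. The span includes introns, and whether exons are shared was not tested. Where they are, reads cannot be told apart without a stated strand setting. How far such reads moved the Cebpb values was not tested.

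Cebpd (ENSMUSG00000071637, chromosome 16, 15887286 to 15891031, plus strand) had 78.2, 36.4 and 64.9 CPM in Cdo1AKO 1, 2 and 3, against 144, 46.9 and 76.2 CPM in control 1, 2 and 3. The highest library held 3.95 times the lowest, and the groups overlapped. The log2 fold change of -0.57 ± 0.47 (SE; edgeR adjusted p = 0.696) rested on control 1. Without that library it was -0.05, and in the 4 libraries that hold lymph node transcripts it turned to 0.21. The span of Spidr, on the opposite strand, overlaps Cebpd by 1808 bases, and Spidr had 122 to 224 counts a library. Whether exons are shared was not tested.

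Klf15 had the largest fold change of the 10. This Kruppel-like factor (ENSMUSG00000030087, chromosome 6, 90462576 to 90475238, plus strand) is induced by glucocorticoids and fasting and raises Pparg during differentiation. It had 42.0, 78.2 and 44.8 CPM in Cdo1AKO 1, 2 and 3, against 229, 73.9 and 133 CPM in control 1, 2 and 3. Only Cdo1AKO 2 reached the control range, just above control 2. Means were 55.0 ± 20.2 CPM in Cdo1AKO and 145 ± 78.0 CPM in control tissue (SD, n = 3 each), with a log2 fold change of -1.40 ± 0.46 (SE; edgeR adjusted p = 0.408). Adding the lymph node term gave -1.35 ± 0.22 (edgeR adjusted p = 0.0334), and without control 1 it was -0.92. In the authors' deposited table Klf15 had a log2 fold change of -1.40 with adjusted p = 0.100.

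Controls differed widely in Klf15 and in other genes that glucocorticoids induce. Zbtb16 had 58.0, 113 and 57.9 CPM in Cdo1AKO 1, 2 and 3 and 399, 43.7 and 214 CPM in control 1, 2 and 3. Klf9, another Kruppel-like factor, had 95.5, 137 and 101 CPM in Cdo1AKO and 298, 114 and 200 CPM in controls, in the same order of libraries. Klf15, Klf9, Zbtb16 and Cebpd all stood highest in control 1, next in control 3 and lowest in control 2 among the controls. This order was not particular to glucocorticoid-induced genes. Pparg, Rxra, Nr1h3 and Adipoq (3077, 2171 and 2604 CPM in control 1, 2 and 3) had it too, while Cebpb, Ebf1 and Stat5a did not. In Cdo1AKO, Klf15, Klf9 and Zbtb16 were highest in library 2 and Cebpd was lowest there. Of 10 glucocorticoid-induced genes, 7 had negative fold changes (median -0.46, and -0.77 without Cdo1AKO 2). At an unadjusted p under 0.05 by edgeR 0 passed, beside 10.4% of all genes. Per1, a clock gene on this list, had -0.51 ± 0.23 (log2 fold change, SE; edgeR adjusted p = 0.522). Without control 1 the log2 fold change was -0.29 for Per1, -0.51 for Klf9 (-0.87 with it) and -0.77 for Zbtb16 (-1.52 with it).

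**Figure D2:**
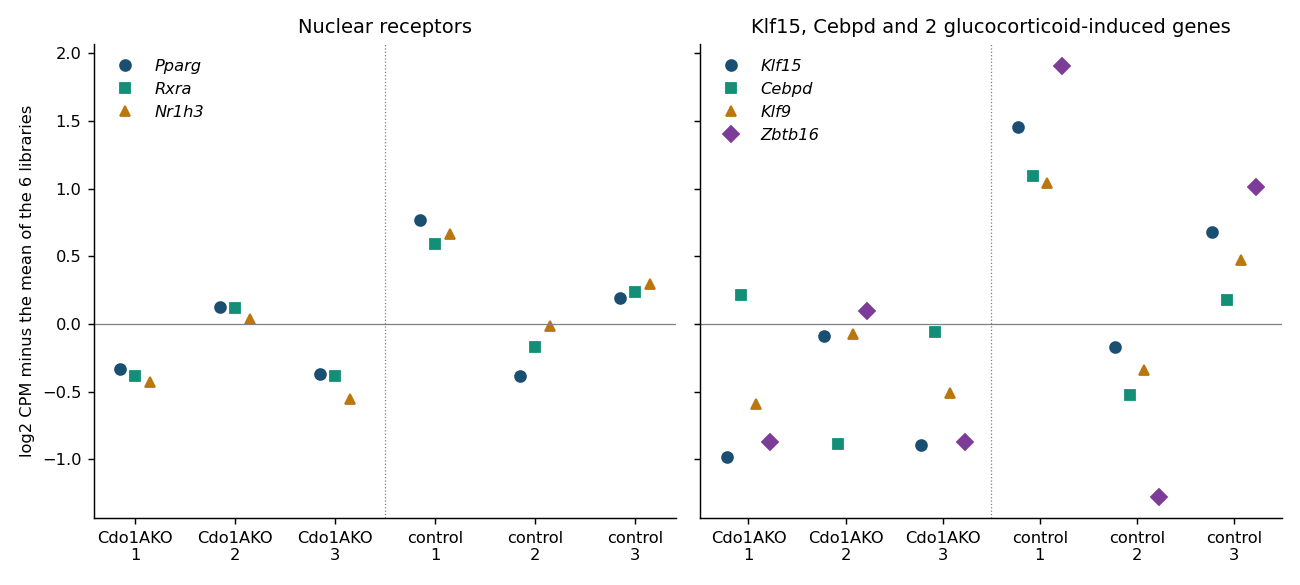
log2 CPM minus the gene's mean over the 6 libraries, for Pparg, Rxra and Nr1h3 (left) and for Klf15, Cebpd, Klf9 and Zbtb16 (right), with 1 point per gene and library and a dotted line between the Cdo1AKO and control libraries. The 3 nuclear receptors lie close together in each library, and among controls all 7 genes are highest in control 1 and lowest in control 2.

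Ebf1 gave the most even difference between the groups. Early B cell factor 1 (ENSMUSG00000057098, chromosome 11, 44617317 to 45008091, plus strand) acts upstream of Pparg and Cebpa in fat cells and is also a B cell factor. It had 104, 136 and 109 CPM in Cdo1AKO 1, 2 and 3, against 207, 193 and 214 CPM in control 1, 2 and 3. Every Cdo1AKO library lay below every control, and the means were 116 ± 17.4 CPM in Cdo1AKO and 205 ± 10.9 CPM in control tissue (SD, n = 3 each). The log2 fold change was -0.82 ± 0.16 (SE), with an unadjusted p = 0.00184 that ranked 110 among all genes, and adjusted p = 0.271 by edgeR. DESeq2 gave adjusted p = 0.0106, and the authors' deposited table gives -0.81 with adjusted p = 0.0101, where 1% of its genes stand under 0.05 (0.655% with a lower value). Adding the lymph node term gave -0.83 ± 0.14 (edgeR adjusted p = 0.0336), and over all 16 alternatives it ran from -0.94 to -0.74, with adjusted p from 0.00519 to 0.938. The 10 lymph node and B cell markers summed to 754, 7.01 and 784 CPM in Cdo1AKO 1, 2 and 3, against 2.21, 1158 and 651 CPM in control 1, 2 and 3. Ebf1 was thus highest of its group in the Cdo1AKO library with the lowest sum. It was lowest of its group in the control library with the highest sum. The other libraries did not follow that order: Ebf1 was lower in control 1 (sum 2.21) than in control 3 (sum 651). It was also higher in Cdo1AKO 3 (sum 784) than in Cdo1AKO 1 (sum 754). The part of these cells in the Ebf1 value was not tested.

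Ebf2, a relative of Ebf1 known from brown and beige fat, had 13.4, 21.8 and 11.1 CPM in Cdo1AKO 1, 2 and 3 and 59.6, 31.9 and 49.2 CPM in control 1, 2 and 3. Its groups did not overlap. Its log2 fold change was -1.60 ± 0.34 (SE), which passed in DESeq2 (adjusted p = 0.00447) and in edgeR once the lymph node term was added (adjusted p = 0.0222), but not in edgeR by group alone (adjusted p = 0.309). Ebf3 had -0.46 ± 0.20 (log2 fold change, SE; edgeR adjusted p = 0.511). Of the 7 EBF and zinc finger relatives tested 6 had negative fold changes, with a median of -0.30. Zfp467, a zinc finger factor that promotes fat cell formation, had 35.1 to 39.2 CPM in Cdo1AKO and 45.3 to 47.0 CPM in control libraries, with a log2 fold change of -0.30 ± 0.12 (SE; edgeR adjusted p = 0.479).

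Zfp423 (ENSMUSG00000045333, chromosome 8, 87661810 to 87959595, minus strand), which marks committed preadipocytes and restrains the thermogenic program, was the only factor with a positive fold change. It had 49.1, 109 and 39.5 CPM in Cdo1AKO 1, 2 and 3, against 45.3, 41.2 and 44.8 CPM in control 1, 2 and 3. Cdo1AKO 2 alone stood far above the rest. With it the log2 fold change was 0.59 ± 0.38 (SE; edgeR adjusted p = 0.644), and without it 0.02 ± 0.13. The 11 progenitor markers summed to 1197, 2213 and 1144 CPM in Cdo1AKO 1, 2 and 3, against 1353, 947 and 1166 CPM in control 1, 2 and 3, so their sum was also highest in Cdo1AKO 2. Within Cdo1AKO, 8 of the 11 were highest in that library and 3 (Dpp4, Cd55 and Icam1) were lowest there. Their part in the Zfp423 value was not tested.

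Stat5a (ENSMUSG00000004043, chromosome 11, 100859351 to 100885169, plus strand), which transmits growth hormone and prolactin signals and binds near Pparg, varied least. It had 63.2, 56.3 and 60.1 CPM in Cdo1AKO 1, 2 and 3, against 63.0, 79.8 and 77.4 CPM in control 1, 2 and 3. Only control 1 lay within the Cdo1AKO range. Stat5a had a log2 fold change of -0.29 ± 0.15 (SE; edgeR adjusted p = 0.554), from -0.40 to -0.21 over the alternatives. Stat5a and Stat5b are near-identical copies, so how their shared reads were counted could move these values. Stat5b itself had a log2 fold change of 0.05 ± 0.23 (SE; edgeR adjusted p = 0.945).

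**Figure D3:**
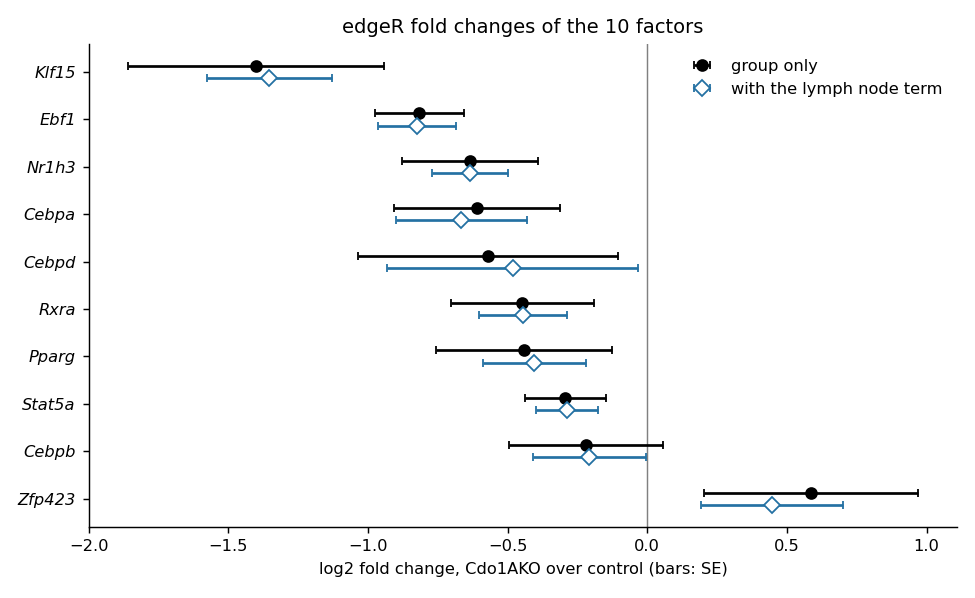
edgeR log2 fold changes of the 10 factors, Cdo1AKO over control (bars are SE), with group as the only term (filled circles) and with the lymph node term added (open diamonds). All but Zfp423 lie below 0 in both fits, Klf15 at -1.40 and -1.35 and Ebf1 at -0.82 and -0.83. The bars of all 10 factors are shorter with the term.

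Per kilobase of listed gene length, Cebpa stood far above the others, at 325 ± 117 CPM per kilobase in Cdo1AKO and 496 ± 8.93 in control tissue (SD, n = 3 each). Cebpb, Nr1h3, Pparg, Rxra and Klf15 formed a middle group with control means of 51.7 to 62.4 CPM per kilobase. Within it Nr1h3 lay above Cebpb in 2 of 6 libraries and Cebpb above Pparg in 3 of 6, so their order is not separated. Rxra lay below Pparg in every library. Klf15 stood at 19.7 ± 7.22 CPM per kilobase in Cdo1AKO and 52.0 ± 28.0 in control tissue, while Rxra stood at 37.9 ± 8.04 in Cdo1AKO and 51.7 ± 13.5 in control tissue. Klf15 lay above Rxra in 1 of 6 libraries, control 1. Cebpd (16.0 ± 5.70 in Cdo1AKO and 23.7 ± 13.3 in control) and Ebf1 (11.9 ± 1.78 in Cdo1AKO and 21.0 ± 1.12 in control) came next and crossed in 3 of 6 libraries. Stat5a and Zfp423 were lowest, at 8.39 and 11.7 CPM per kilobase in Cdo1AKO and 10.3 and 7.81 in control tissue. The levels of Cebpb and Cebpd could be less certain, since 908 and 1808 of their bases lie within the spans of genes on the opposite strand.

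Set against Adipoq, the adiponectin gene of fat cells, 2 factors had groups that did not overlap, Klf15 (lower) and Zfp423 (higher), while Ebf1 and Cebpa overlapped. Of all other genes tested, 24% did not overlap in this ratio, 1.96% lower and 22% higher, so the count of 2 in 10 is near the background. Adipoq itself had 1959 ± 731 CPM in Cdo1AKO and 2617 ± 453 CPM in control tissue (SD, n = 3 each; log2 fold change -0.42 ± 0.35, SE, edgeR adjusted p = 0.704). The ratio of Pparg to Adipoq CPM was 0.0701 ± 0.0109 in Cdo1AKO and 0.0669 ± 0.0149 in control tissue, and that of Rxra was 0.109 ± 0.0156 in Cdo1AKO and 0.107 ± 0.00966 in control tissue. Klf15 to Adipoq was 0.0282, 0.0279 and 0.0283 in Cdo1AKO 1, 2 and 3, against 0.0743, 0.0341 and 0.0512 in control 1, 2 and 3. This ratio was nearly constant over the Cdo1AKO libraries and lower than in every control. Zfp423 to Adipoq went the other way, with 0.0329, 0.0388 and 0.0249 in Cdo1AKO and 0.0147, 0.0190 and 0.0172 in controls, again without overlap. Ebf1 to Adipoq was 0.0623 ± 0.0119 in Cdo1AKO and 0.0794 ± 0.0111 in control tissue, and its groups overlapped. These ratios are given without a test, since 3 against 3 libraries allow no two-sided exact p below 0.1.

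**Figure D4:**
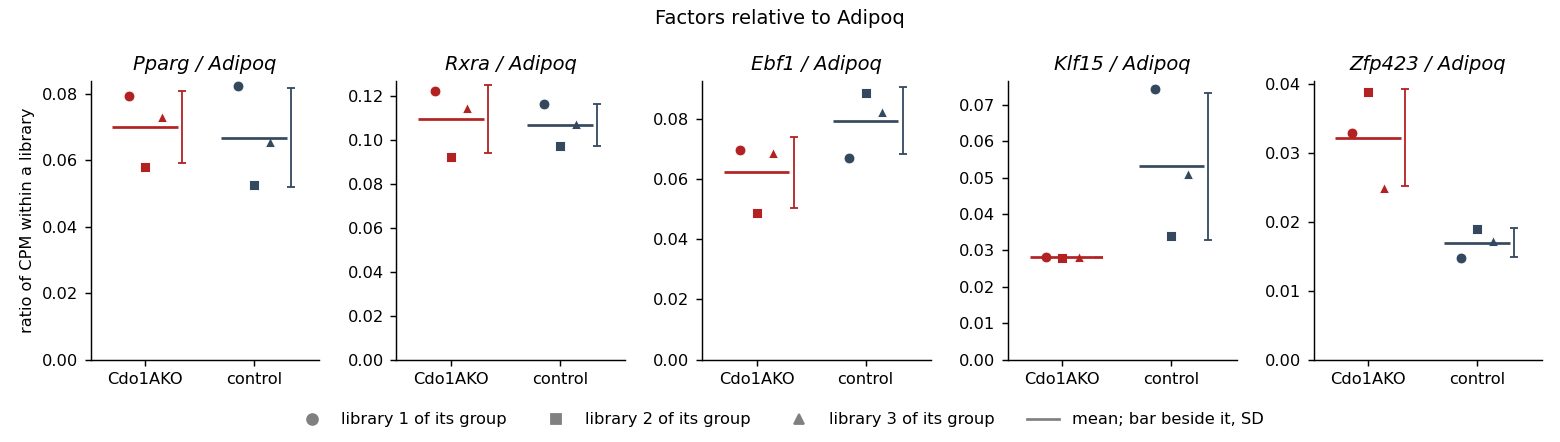
Ratio of the CPM of 5 factors to that of Adipoq within each library, for Cdo1AKO and control, with the group mean (line) and SD (bar). Klf15 is lower and Zfp423 higher in all 3 Cdo1AKO libraries than in all 3 controls, while Pparg and Rxra overlap.

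Among 15 other nuclear receptors, not all of them partners of PPARG or RXRs, Ppara and Thrb stood lowest in Cdo1AKO relative to control tissue. Ppara, the fatty acid receptor that drives oxidation genes, had 3.65, 3.28 and 5.32 CPM in Cdo1AKO 1, 2 and 3, against 12.1, 12.6 and 14.9 CPM in control 1, 2 and 3. Its log2 fold change was -1.69 ± 0.25 (SE; adjusted p = 0.230 by edgeR, 3.48e-05 by DESeq2). The thyroid hormone receptor Thrb had 21.9, 33.4 and 21.3 CPM in Cdo1AKO and 63.6, 49.4 and 56.8 CPM in controls, with -1.15 ± 0.22 (adjusted p = 0.271 by edgeR, 0.00703 by DESeq2). The glucocorticoid receptor Nr3c1 had 129 to 134 CPM in Cdo1AKO and 161 to 170 CPM in control libraries (log2 fold change -0.34 ± 0.12, SE, edgeR adjusted p = 0.427). Of 15 receptors on the list 10 had negative fold changes (median -0.11, and -0.20 without Cdo1AKO 2). Without adjustment 4 were lower and 0 higher at p under 0.05 by edgeR, beside 5.71% and 4.66% of all genes. DESeq2 called 2 lower, beside 0.965% of all genes.

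Among coactivators and corepressors, Ppargc1a and Prdm16 lay lower in every Cdo1AKO library. They are among 6 of the 19 that did, while 1 lay higher, beside 9.73% and 8.87% of all genes. Ppargc1a, the coactivator of PPARs in mitochondrial gene expression, had 5.60, 6.95 and 5.16 CPM in Cdo1AKO 1, 2 and 3, against 15.9, 13.5 and 17.1 CPM in control 1, 2 and 3. Its log2 fold change was -1.39 ± 0.21 (SE; adjusted p = 0.230 by edgeR, 1.01e-04 by DESeq2). Prdm16, which directs beige fat genes, had -0.75 ± 0.22 (edgeR adjusted p = 0.369), and Nrip1, a corepressor of energy expenditure genes, -0.90 ± 0.29 (edgeR adjusted p = 0.396), both as log2 fold change and SE. Med24, a Mediator subunit, had 53.6, 53.6 and 41.9 CPM in Cdo1AKO and 34.7, 42.1 and 41.1 CPM in controls (log2 fold change 0.34 ± 0.16, SE, edgeR adjusted p = 0.538). Of 19 genes 13 had negative fold changes (median -0.18, and -0.10 without Cdo1AKO 2). Without adjustment 6 were lower and 0 higher at p under 0.05 by edgeR, beside 5.71% and 4.66% of all genes. DESeq2 called 1 lower, beside 0.965% of all genes.

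Among other adipogenic factors, Xbp1, Mlxipl, Srebf1 and Bhlhe40 lay lower in every Cdo1AKO library and Egr2 higher. Of the 8 tested, 4 were thus lower and 1 higher without overlap, beside 9.73% and 8.87% of all genes. Xbp1, a secretory stress factor that also binds Cebpa, had 204, 176 and 177 CPM in Cdo1AKO and 406, 258 and 338 CPM in controls. Its log2 fold change was -0.85 ± 0.21 (SE; edgeR adjusted p = 0.345). Mlxipl, the carbohydrate response factor ChREBP, had -0.84 ± 0.24 (edgeR adjusted p = 0.362) and passed once the lymph node term was added (edgeR adjusted p = 0.0373). Egr2, an early inducer of Cebpb, had 9.55, 9.26 and 9.06 CPM in Cdo1AKO and 2.52, 5.14 and 4.77 CPM in controls, with 1.16 ± 0.31 (log2 fold change, SE; edgeR adjusted p = 0.345), and it too passed with that term added (edgeR adjusted p = 0.04997). Of 10 immediate early genes, 9 had positive fold changes (median 0.98, and 0.28 without Cdo1AKO 2). Without adjustment 5 were higher and 1 lower at p under 0.05 by edgeR, beside 4.66% and 5.71% of all genes. DESeq2 called Ier2 and Nr4a1 higher, beside 0.513% of all genes. Ier2 had 54.7, 51.7 and 42.4 CPM in Cdo1AKO and 24.2, 27.6 and 25.1 CPM in controls.

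Of the C/EBP and STAT relatives and the other Kruppel-like factors none passed edgeR or DESeq2. Cebpg, a C/EBP partner, had a log2 fold change of -0.51 ± 0.20 (SE; edgeR adjusted p = 0.467), Stat3 -0.32 ± 0.14 and Stat6 0.34 ± 0.15 (0.22 without control 1). Of 5 relatives tested 2 had negative fold changes. Of 12 Kruppel-like factors 6 had negative fold changes. Klf8 had 4.65, 5.73 and 4.83 CPM in Cdo1AKO and 2.21, 3.21 and 2.52 CPM in controls (log2 fold change 0.93 ± 0.26, SE, edgeR adjusted p = 0.362), and Klf2, an inhibitor of Pparg, had 0.57 ± 0.27 (edgeR adjusted p = 0.540).

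Of 15 inhibitors of adipogenesis 9 had negative fold changes, with a median of -0.02 that was -0.34 without Cdo1AKO 2. Runx2, the bone lineage factor, had 15.9, 10.2 and 18.6 CPM in Cdo1AKO and 5.83, 10.5 and 8.15 CPM in controls. Its log2 fold change was 0.87 ± 0.32 (SE; edgeR adjusted p = 0.437), and it passed once the lymph node term was added (edgeR adjusted p = 0.0493). Tcf7l2, a Wnt pathway factor, had 36.1 to 37.2 CPM in Cdo1AKO and 39.9 to 58.8 CPM in control libraries (log2 fold change -0.46 ± 0.17, SE, edgeR adjusted p = 0.448). Irf4 had 55.2, 4.44 and 47.3 CPM in Cdo1AKO and 223, 41.2 and 132 CPM in controls, an order like that of Klf15 among the controls (log2 fold change -1.89 ± 0.97, SE, edgeR adjusted p = 0.566).

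Of 34 known PPARG targets 26 had negative fold changes, with a median of -0.43 that was -0.83 without Cdo1AKO 2. Without adjustment 8 were lower and 0 higher at p under 0.05 by edgeR, beside 5.71% and 4.66% of all genes. DESeq2 called 5 lower, beside 0.965% of all genes: Hcar2, Cfd, Cidea, Pck1 and Pnpla2. Hcar2, the niacin receptor, had 20.3, 23.0 and 16.7 CPM in Cdo1AKO 1, 2 and 3, against 53.2, 45.0 and 48.7 CPM in control 1, 2 and 3. Acvr1c, an activin receptor of fat cells, had 87.4 to 93.6 CPM in Cdo1AKO and 124 to 161 CPM in control libraries (log2 fold change -0.65 ± 0.15, SE, edgeR adjusted p = 0.332). Cfd, which encodes adipsin, had a log2 fold change of -2.16 ± 0.52 (SE; edgeR adjusted p = 0.345). Fabp4, a classical PPARG target, had 13522 ± 7493 CPM in Cdo1AKO and 16979 ± 3024 CPM in control tissue (SD, n = 3 each; log2 fold change -0.33 ± 0.60, SE, edgeR adjusted p = 0.866). Adipoq and Fabp4 overlapped between groups through Cdo1AKO 2 alone, and the other Cdo1AKO libraries lay below every control. With that library left out, 55% of all genes did not overlap and 27% lay lower, so this separation is common. Without Cdo1AKO 2 the log2 fold change was -0.77 for Adipoq and -0.88 for Fabp4.

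Of 9 LXR targets, which NR1H3 regulates, 5 had negative fold changes, with a median of -0.05. Abca1, the cholesterol exporter, had 216, 228 and 220 CPM in Cdo1AKO and 295, 283 and 290 CPM in controls. Its log2 fold change was -0.39 ± 0.13 (SE; edgeR adjusted p = 0.416). Srebf1, the lipogenic factor, had -0.53 ± 0.20 (edgeR adjusted p = 0.441), and Pltp, the phospholipid transfer protein, had 0.59 ± 0.23 (edgeR adjusted p = 0.470, and a fold change of 0.38 without Cdo1AKO 2), each with groups that did not overlap. Abcg1 had 71.9 to 126 CPM in Cdo1AKO and 106 to 127 CPM in control libraries. Apoe also lay lower in every Cdo1AKO library, with a log2 fold change of -0.69 ± 0.35 (SE, edgeR adjusted p = 0.564). Of the 9 targets 3 lay lower and 1 higher without overlap, beside 9.73% and 8.87% of all genes.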

How the data were processed

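For 6 libraries the authors deposited a single table of read counts per gene, per the file headers. RNA was taken up in TRIzol and libraries were built with a NEBNext Ultra kit, per the labels' protocols. The submitters' processing notes name, with no role, the tools featureCounts (1.5.0-p3), HISAT2 (2.0.5) and DESeq2 (1.20.0), and mm10 as the build. None of the sources states a strand setting. The FPKM values deposited by the authors were used only to find their scale, which was 1 constant per library. The authors' deposited table also holds their log2 fold changes and p-values. The members and gene lists, and the lymph node term, were chosen with earlier results of these data known. Titles gave each sample's group and number, and WT columns were matched to controls by the genotype label and number.

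Counts were filtered with filterByExpr by group, TMM-scaled and then compared in edgeR 4.0.16 under R 4.3.3 (quasi-likelihood, group as the only term, Benjamini-Hochberg over all tested genes, threshold 0.05). SE is the size of the log2 fold change over the square root of F. CPM uses TMM-scaled library sizes, and each SD covers a group's 3 libraries. Lists were described by counts and medians. Named genes were the 10 members, Cdo1, Ppargc1a, Med24, Adipoq, Fabp4, the 3 genes of each list with the smallest p and the 5 most like Pparg (log2 CPM with a prior count of 2); others were named after their values were seen. The lymph node term separates libraries by whether their lymph node and B cell markers had a median CPM above 5. Alternatives were other scaling, other filters, DESeq2 1.42.0, limma 3.58.1 (voom), robust estimation, the lymph node term, a replicate block, each library left out, and the 4 libraries with lymph node transcripts alone. The edgeR test was checked on simulated counts. Gene spans of all 10 members equal those of GENCODE M21 (GRCm38), which was used to place the RefSeq windows.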

Additional observations from a re-analysis of the deposited data

How the results depend on the processing

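Direction held for 9 of the 10 factors under all 16 alternatives. The exception was Cebpd, at 0.21 within the 4 libraries with lymph node transcripts. The number of factors past an adjusted p of 0.05 was 0 by edgeR, 1 by DESeq2 (Ebf1), 2 with the lymph node term (Klf15 and Ebf1) and 4 within the 4 libraries with lymph node transcripts (Cebpa, Klf15, Ebf1 and Nr1h3). Over all genes these counts were 0, 271, 686 and 2617, and the cause was not tested. In those 4 libraries the Cdo1AKO arm is the closely alike pair 1 and 3. Leaving out each library in turn gave 0 to 0 for both counts, with 858 to 4707 genes at an unadjusted p under 0.05. The other scalings, filters, limma-voom and robust estimation also gave 0. The number of factors whose groups did not overlap was 2, and from 3 to 6 under the alternatives. It was 5 without Cdo1AKO 2, all lower, where 55% of all genes did not overlap (27% lower). Without control 2 it was 6, all lower (31% of all genes, 16.4% lower), and with library totals only it was 5, 1 of them higher (19.7%). In the 4 libraries that hold lymph node transcripts it was 6, all lower (62%, 30.6% lower), and with all 6 libraries 18.6% of genes did not overlap. Log2 fold changes moved by over 1.5 times with 1 library left out for Pparg (-0.12 without control 1, -0.69 without control 2), Rxra (-0.25 without control 1) and Cebpa (-0.94 without Cdo1AKO 2). The same held for Cebpb (-0.03 without control 1, -0.42 without control 3, -0.35 without Cdo1AKO 2, -0.04 without Cdo1AKO 3). It also held for Cebpd (-0.05 without control 1, -0.88 without control 2, -0.31 without Cdo1AKO 2), Klf15 (-0.92 without control 1) and Zfp423 (0.02 without Cdo1AKO 2).

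Same-numbered samples are not known to share an animal or a day, and their deviations from the group means correlated at -0.66, -0.67 and 0.45 for numbers 1, 2 and 3. With a replicate block in the fit, 0 genes and 0 factors passed, with 909 genes at an unadjusted p under 0.05 against 1724 without it. With 3 libraries a group and Cdo1AKO 2 and control 1 apart from the rest, a p that misses the threshold does not show that a factor kept its level.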
